A study of Mus musculus with 33 samples.

Results

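The genes described here are the 10 members of the naive pluripotency network Klf2, Klf4, Klf5, Esrrb, Tfcp2l1, Tbx3, Zfp42, Dppa3, Prdm14 and Tcl1, chosen by name from 22367 protein-coding genes of the GENCODE vM1 annotation of the mouse NCBIM37 (mm9) assembly. All 10 were found, Tfcp2l1 under its older symbol Tcfcp2l1. Their chromatin was profiled by immunoprecipitation and sequencing (ChIP-seq), in which an antibody pulls down the DNA that lies with a protein or a modified histone, in mouse cells that were wild type (WT) or lacked Uhrf1 (KO). Uhrf1 is a chromatin protein that binds hemimethylated DNA and methylated H3K9 and recruits the maintenance methyltransferase Dnmt1. The undifferentiated cells were E14 mESC, a mouse embryonic stem cell line, of genotype WT or Uhrf1 KO, grown with serum and leukemia inhibitory factor (LIF) on gelatin or on mouse embryonic fibroblast (MEF) plates. The differentiated cells were embryoid bodies (EBs), aggregates formed in hanging drops from the same WT and Uhrf1 KO cells, taken at week 1, 2 and 3. WT and KO cells came from 1 source laboratory, and the number of KO clones behind the libraries is not given in the sources used here. H3K4me3 and H3K27me3 were profiled at all 4 stages in both genotypes, H3K9me3, Oct4, Sox2 and Nanog in WT and KO mESC, and Uhrf1 in WT mESC.

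Each group held 1 library, so the replicate error of the differences below is unknown and no p-value is given. The 25 lists of enriched regions comprised 18 lists of histone domains, 6 lists of factor summits and 1 list of Uhrf1 windows, and 8 input samples were not analysed here. The lists give no reads outside the enriched regions, and the read totals per library that the study lists in a supplement were not used here; they are larger in WT than in KO for Oct4, Sox2 and Nanog alike. There were 11509 to 39898 domains in a list for H3K4me3, and 722 (KO mESC) to 9488 for H3K27me3. The H3K4me3 domains covered least at EB week 1, 107 Mb in WT and 73.4 Mb in KO, against 154 to 216 Mb in the other H3K4me3 lists. The 3 mESC markers Pou5f1, Sox2 and Nanog carried H3K4me3 in both mESC lists. So did 5 of 8 fibroblast markers, near the share of all genes (63.2% in WT and 57.0% in KO). In WT mESC those 5 were among 7 of 8 that had H3K27me3 (34.9% of all genes), and in KO mESC 1 of 8 had it (7.57%). The Uhrf1 gene had an H3K4me3 domain at its start in all 8 lists, KO included, so this mark does not check the genotype labels.

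Naive pluripotency is the state of the early epiblast, and mESC hold it under LIF signalling. The network that sustains it joins the core factors Oct4, Sox2 and Nanog to a second tier of regulators, to which the genes here belong, and it is shut down when cells exit towards lineage commitment. H3K4me3 marks active or poised gene starts, H3K27me3 is the mark of Polycomb repression, and a start with both is called bivalent. H3K9me3 marks heterochromatin. A start was counted as marked where a deposited domain lay within 2 kb of it for H3K4me3, or within 5 kb for H3K27me3 and H3K9me3.

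Among the members, the places where summits of at least 2 of Oct4, Sox2 and Nanog coincided in 1 genotype carry many of the results below, so the sequence of the 8 tallest such places is shown first. Each line gives 101 bases of NCBIM37 centred on the WT Oct4 summit, on the plus strand, and capitals mark ATGCAAA or its reverse complement TTTGCAT, the core of the octamer that Oct4 is known to bind.
Esrrb +137.9 kb (chr12:87839903-87840003, intron of Esrrb): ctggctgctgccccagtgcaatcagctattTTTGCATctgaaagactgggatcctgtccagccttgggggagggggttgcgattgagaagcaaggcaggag
Esrrb +140.7 kb (chr12:87842681-87842781, intron of Esrrb): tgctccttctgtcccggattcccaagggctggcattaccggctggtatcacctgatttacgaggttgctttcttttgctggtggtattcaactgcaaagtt
Klf2 -2.74 kb (chr8:74840140-74840240, intergenic): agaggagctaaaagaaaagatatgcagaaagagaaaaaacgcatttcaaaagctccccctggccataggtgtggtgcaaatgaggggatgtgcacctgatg
Zfp42 -13.8 kb (chr8:44406110-44406210, intergenic): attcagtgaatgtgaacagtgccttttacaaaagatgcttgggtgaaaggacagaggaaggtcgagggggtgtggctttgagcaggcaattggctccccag
Klf2 +15.5 kb (chr8:74858358-74858458, intergenic): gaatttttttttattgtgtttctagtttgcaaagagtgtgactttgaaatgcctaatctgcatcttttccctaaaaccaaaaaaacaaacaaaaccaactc
Dppa3 -1.74 kb (chr6:122574634-122574734, intergenic): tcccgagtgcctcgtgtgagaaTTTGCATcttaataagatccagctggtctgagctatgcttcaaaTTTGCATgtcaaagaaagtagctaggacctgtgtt
Tfcp2l1 -2.27 kb (chr1:120522205-120522305, intergenic): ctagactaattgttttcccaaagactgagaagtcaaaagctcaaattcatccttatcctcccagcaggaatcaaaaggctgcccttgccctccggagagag
Klf2 -7.72 kb (chr8:74835160-74835260, intergenic): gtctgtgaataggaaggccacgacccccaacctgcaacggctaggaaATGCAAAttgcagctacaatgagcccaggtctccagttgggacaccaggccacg

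Distances are from the gene start, negative upstream. The letters ATGCAAA, read on either strand, were in 3 of these 8 windows and in 7 of the windows around all 27 WT Oct4 summits near the members (25.9%), against 13.0% of 12697 WT Oct4 windows of the same length. The Dppa3 window held the letters at 2 positions. Such a match describes the window and was not tested as a binding site.

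The 250 bases before the start of Zfp42 and of Dppa3 are shown because a WT Oct4 summit lay within each and because H3K4me3 at both starts differed between the genotypes in EBs. They are written 5′ to 3′ on the strand of the gene, with the same letters in capitals.
Zfp42 upstream (chr8:44392364-44392613, minus strand): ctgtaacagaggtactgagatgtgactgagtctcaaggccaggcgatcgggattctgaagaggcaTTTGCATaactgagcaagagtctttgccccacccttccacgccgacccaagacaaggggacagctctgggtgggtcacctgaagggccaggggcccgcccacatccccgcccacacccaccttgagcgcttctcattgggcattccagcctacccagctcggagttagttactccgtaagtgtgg
Dppa3 upstream (chr6:122576178-122576427, plus strand): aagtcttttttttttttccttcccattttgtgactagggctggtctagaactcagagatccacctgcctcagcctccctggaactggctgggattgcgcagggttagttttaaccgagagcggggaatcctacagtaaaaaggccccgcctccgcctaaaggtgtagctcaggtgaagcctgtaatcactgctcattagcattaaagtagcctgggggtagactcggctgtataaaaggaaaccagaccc

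H3K4me3 covered most of the network in undifferentiated cells of both genotypes. In mESC, 9 of 10 members were marked in WT and 8 in KO, against 63.2% and 57.0% of all protein-coding genes. At week 1, 8 members were marked in WT and 5 in KO (all genes 62.1% and 57.0%). At week 2, 7 were marked in each genotype (65.7% and 64.5%), and at week 3, 8 in WT and 9 in KO (66.2% and 65.8%). Tcl1 was marked in WT mESC and not in KO mESC, a difference found at 7.60% of all genes. Zfp42, Dppa3 and Prdm14 were marked in WT EBs at week 1 and not in KO EBs, a difference found at 6.23% of all genes. Dppa3 was the only member marked in KO and not in WT at any stage, at week 3, where 2.04% of all genes had that difference. No member was marked in KO alone in mESC (1.38% of all genes) or at week 1 (1.18%), and at week 2 none differed, against 3.51% of all genes marked in WT alone and 2.27% in KO alone. At week 3 none was marked in WT alone (2.47%). With only domains that reached the median score of their list, 9 members were marked in WT mESC against 4 in KO, and 6 against 3 at week 1. The number of members marked in WT alone was then 5 in mESC and 3 at week 1, against 1 and 3 with all domains. The share of all genes under that limit was not computed, so these counts have no background. The score grows with the number of bins, so the limit removes short domains, among them that of Klf4 in KO mESC, which is part of a split one.

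**Figure D1:**
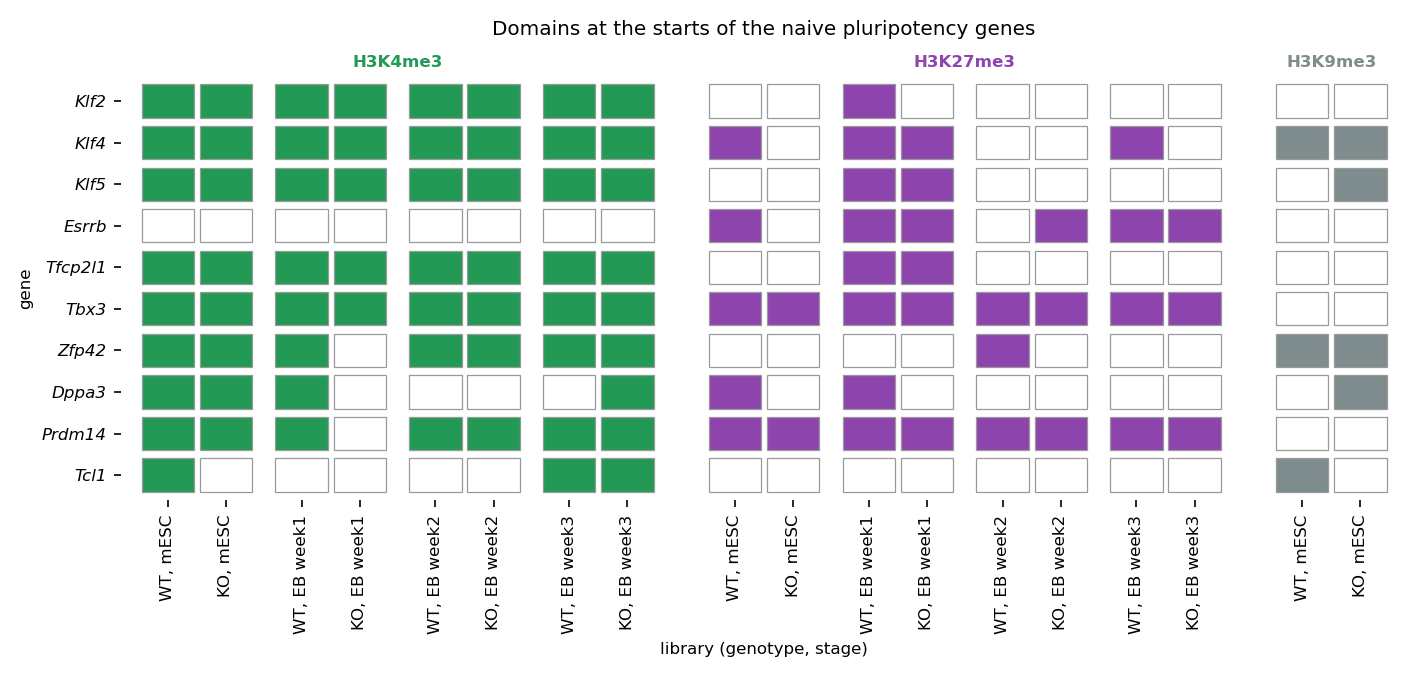
State of each gene start (rows) in each of the 18 histone lists (columns, by mark, stage and genotype); a filled square means that a domain lay within 2 kb (H3K4me3) or 5 kb (H3K27me3, H3K9me3) of the start. H3K4me3 squares of Zfp42, Dppa3 and Prdm14 are filled in WT and empty in KO at EB week 1, while those of Klf2, Klf4, Klf5, Tfcp2l1 and Tbx3 are filled in all 8 lists.

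The Klf genes encode zinc-finger activators that can stand in for one another in self-renewal. Klf2 (chr8:74842932-74845555, plus strand), Klf4 (chr4:55540013-55545347, minus strand) and Klf5 (chr14:99697910-99712624, plus strand) were marked by H3K4me3 in all 8 lists. The Klf2 domain was 27.3 kb long in WT mESC and 26.0 kb in KO mESC. Its mean, as given in each list, was 11.8 reads per bin in WT and 5.19 in KO. These means were above those of 36.8% of the WT list and 1.99% of the KO list. At Klf5 (18.5 against 15.2), Tbx3 and Dppa3 the mean in mESC was higher in KO than in WT. In EBs the Klf2 domain was 9.60 kb in WT and 1.05 kb in KO at week 1, 19.2 and 23.8 kb at week 2, and 8.0 and 8.8 kb at week 3. The short KO domain at week 1 began 1.07 kb inside the gene and left the start itself uncovered. The Klf4 domain was 22.1 kb long in WT mESC and 6.50 kb in KO mESC. The KO list held a further domain of 16.9 kb, from 2.85 to 19.7 kb past the start and mostly beyond the end of the gene. Together the KO domains, with a gap between them, reached past both ends of the WT one. In EBs the domain at the start measured 5.20 to 10.8 kb in WT and 4.90 to 13.2 kb in KO. The Klf5 domain was 31.2 kb long in WT mESC and 22.1 kb in KO mESC, and 7.20 kb or 6.30 kb at week 1. None of the 14 other Klf family genes differed between WT and KO in H3K4me3 at any of the 4 stages. Of all genes, 7.60, 6.23, 3.51 and 2.47% were marked in WT alone at these stages, and 1.38, 1.18, 2.27 and 2.04% in KO alone. With shares that low, little can be read from 14 genes.

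Esrrb (chr12:87702067-87862578, plus strand), an orphan nuclear receptor that sustains self-renewal, had no H3K4me3 domain at its annotated start in any of the 8 lists. The annotation gives it 5 transcript starts over a gene of 160.5 kb, and the mark lay at those inside the gene. In mESC the last of them were covered by a domain of 40.3 kb in WT, from 103.8 to 144.1 kb inside the gene, and of 45.5 kb in KO, from 101.2 to 146.7 kb. The starts 60.5 and 60.8 kb inside the gene were marked in WT mESC and in all 6 EB lists, and not in KO mESC. At week 1 the domain beyond 100 kb was absent from the list of either genotype. At week 2 the WT list held fragments of 4.80 and 2.40 kb there and the KO list a domain of 42.0 kb, and at week 3 the domain was 37.6 kb long in WT and 41.6 kb in KO.

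Tfcp2l1 (chr1:120524522-120581744, plus strand), a CP2-family factor downstream of LIF and Stat3, and Tbx3 (chr5:120120678-120134733, plus strand), a T-box factor, were marked in all 8 lists. In mESC the Tfcp2l1 domain was the longer in KO, 10.4 kb in WT against 27.3 kb, and the Tbx3 domain the shorter, 28.6 kb in WT against 2.60 kb. The WT list held a further Tfcp2l1 domain of 9.10 kb, from 15.4 to 24.5 kb inside the gene, and the single KO domain ended where that one did. The 2.60 kb domain at Tbx3 began 0.623 kb inside the gene. At week 1 Tfcp2l1 had 3.20 kb in WT and 1.05 kb in KO, and Tbx3 16.8 and 7.70 kb. By week 3 the Tbx3 domain was 31.2 kb long in both genotypes.

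Zfp42 (chr8:44380422-44392363, minus strand), also called Rex1, is a zinc-finger gene used as a marker of the naive state. Its H3K4me3 domain was 39.0 kb long in both mESC lists, with a mean of 26.3 reads per bin in WT and 14.8 in KO, in bins of 1300 bp. At week 1 a domain of 3.60 kb remained in WT and none within 2 kb in KO. The domain at the start was 18.8 kb long in WT and 30.8 kb in KO at week 2, and 31.6 and 32.4 kb at week 3. The week 1 lists covered least of all H3K4me3 lists, and the part of this in the week 1 state was not tested. The study's methods state that ChIP-seq read counts were normalised to mapped reads, but not whether the deposited values were, so they are given as values of each list.

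Dppa3 (chr6:122576428-122580290, plus strand), also called Stella, encodes a maternal and germ-cell protein known to protect DNA methylation in the zygote and to bind Uhrf1. Its H3K4me3 domain was 10.4 kb long in WT mESC and 6.50 kb in KO mESC. At week 1 the WT list held a domain of 6.40 kb that began 1.17 kb inside the gene, and the KO list none. No domain lay at the start in either genotype at week 2. At week 3 a KO domain of 5.20 kb began 1.97 kb inside the gene, just within the limit of 2 kb, and the WT list held none. Over the 16 H3K4me3 and H3K27me3 lists, Dppa3 had a pattern of states found at no other protein-coding gene. Those of Zfp42 (4 genes), Tcl1 (5) and Esrrb (13) were found at few genes, that of Tbx3 at 153 and that of Klf2 at 199. Each count includes the gene itself. How many of all genes have a pattern shared by so few was not computed, so these counts have no background. The Dppa3 pattern also rests in part on the week 3 domain at 1.97 kb.

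Prdm14 (chr1:13103538-13117244, minus strand), a PRDM-family repressor that limits FGF signalling and de novo DNA methylation, had an H3K4me3 domain of 10.4 kb in WT mESC and 7.80 kb in KO mESC. At week 1 it was 6.0 kb in WT and absent in KO, and at weeks 2 and 3 it measured 5.20 to 5.95 kb in the 4 lists. Tcl1 (chr12:106454967-106460947, minus strand), a coactivator of Akt kinase, had a domain of 10.4 kb in WT mESC and none in KO mESC. It had none in any list at weeks 1 and 2, and at week 3 one of 4.40 kb in WT and 7.60 kb in KO. It was the member with the fewest marked lists after Esrrb, 3 of 8.

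Where a member was marked in both genotypes, the KO domain was more often the shorter early and the longer late. In mESC 6 of 8 such members had the shorter domain in KO, against 49.4% of all genes marked in both. At week 1 it was 5 of 5 (82.2% of all genes), at week 2, 2 of 7 (67.3%) and at week 3, 1 of 8 (46.0%). At weeks 2 and 3, 5 members each had the longer domain in KO, among them Klf2, Klf5 and Zfp42, against 32.0% and 46.5% of all genes. Klf5 at week 2 (17.2 kb in WT and 17.85 kb in KO) and Klf2 at week 3 (8.0 and 8.8 kb) were longer by little. Zfp42 at week 2 (18.8 and 30.8 kb) was longer by more. Only the longest domain within 2 kb of the start was measured, so a domain split in 1 list counts as shorter, as for Klf4 in KO mESC and Tfcp2l1 in WT mESC. Domain lists were called separately with bins of 350 to 400 bp in EBs and 1300 bp in mESC, and the bin was 400 bp in WT and 350 bp in KO at weeks 1 and 2, and the part of the bin and of depth in these lengths was not tested.

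**Figure D2:**
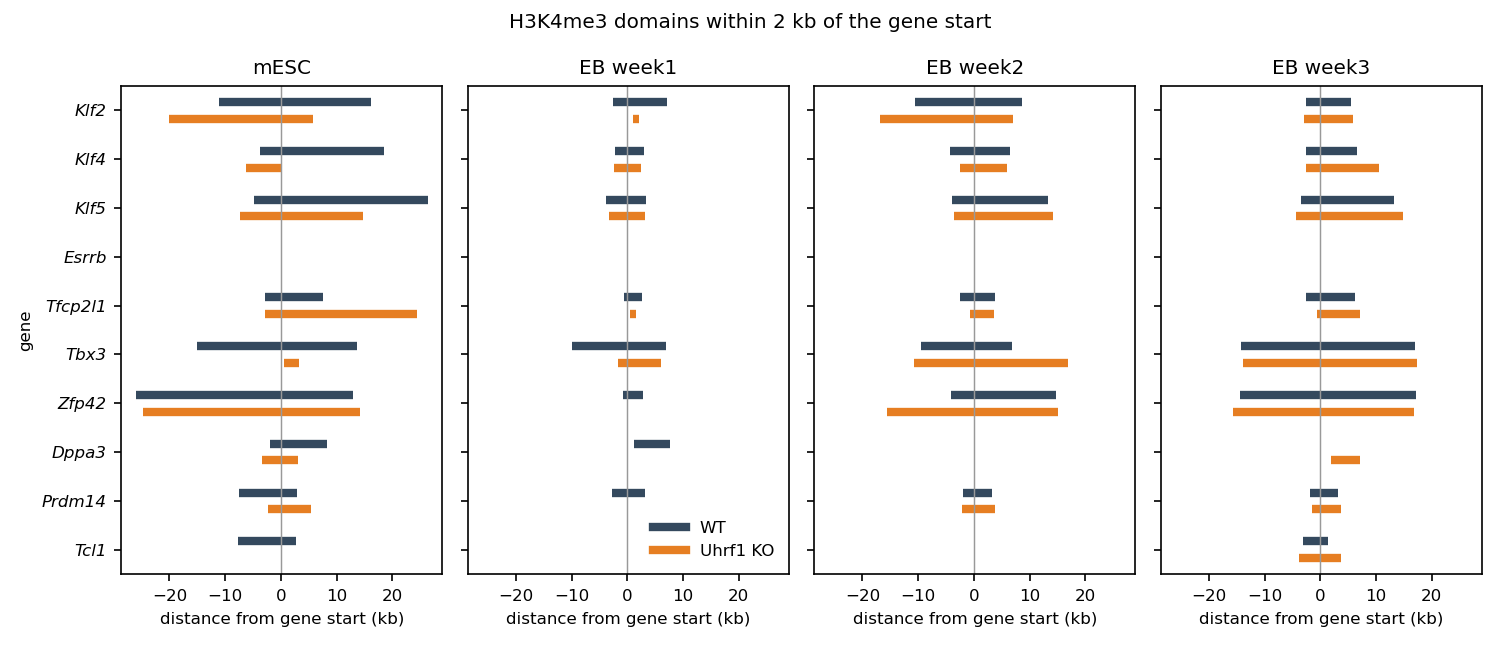
H3K4me3 domains within 2 kb of the start of each member at the 4 stages; the x axis is the distance from the gene start in kb along the direction of transcription, dark bars are WT and orange bars Uhrf1 KO. At EB week 1 all 5 KO domains are shorter than the WT domain of the same gene, and Klf2 has 9.60 kb in WT and 1.05 kb in KO.

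With all domains and the limit of 2 kb, the starts whose H3K4me3 differed between genotypes were among those with few CpG dinucleotides, but this did not hold under other limits. The ratio of observed to expected CpG, over 250 bases before and 50 after the start, had a median of 0.534 over all starts. It was above that at Klf4 (0.974), Klf2 (0.899), Tbx3 (0.782), Klf5 (0.739) and Tfcp2l1 (0.656), and these 5 members were marked in all 8 lists. It was below at Tcl1 (0.462), Zfp42 (0.441), Prdm14 (0.375), Dppa3 (0.312) and Esrrb (0.266), which were marked in 3, 7, 7, 4 and 0 lists. For Esrrb both values are of the annotated start, and its marked starts inside the gene are not counted here. All 5 differences between WT and KO at annotated starts were at members below the median ratio. With a limit of 1 kb the CpG-rich start of Klf2 was marked in WT alone at week 1, and with only domains that reached the median score so were Klf4 and Tbx3 in mESC and Klf2 at week 1. Over all starts the gap was small: at week 1, 6.76% of those below the median CpG ratio and 5.71% of those at or above it were marked in WT alone. In mESC these shares were 7.84% and 7.35%. Fewer CpG-poor starts were marked in WT, 3440 against 10442 at week 1. Of the starts marked in WT, the shares unmarked in KO were therefore further apart, 22.0% and 6.11% at week 1 and 23.5% and 7.90% in mESC. The part of CpG content in the difference was not tested.

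**Figure D3:**
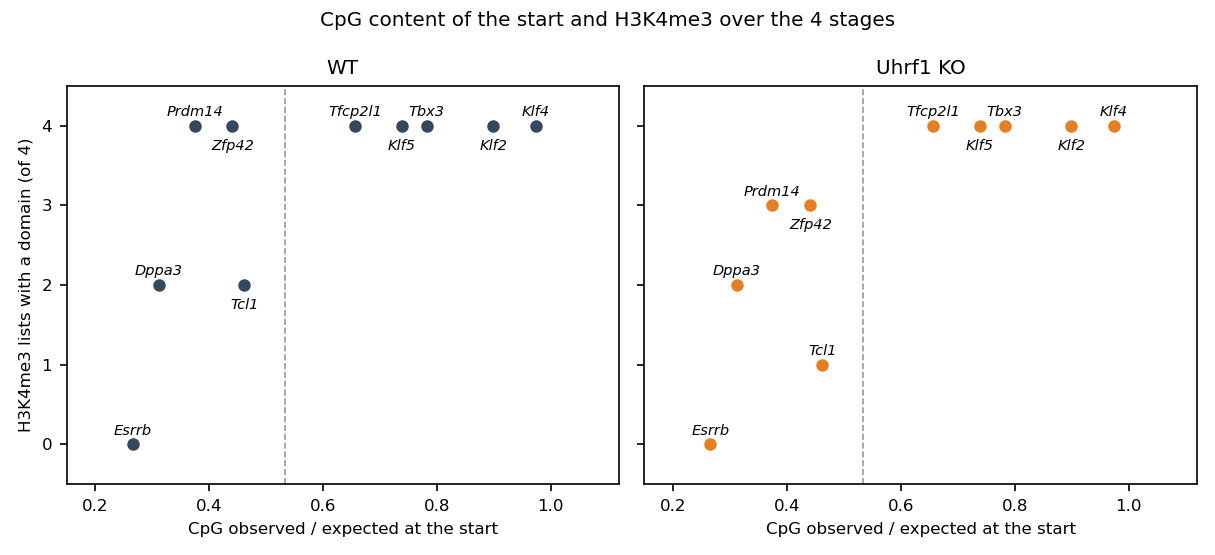
Ratio of observed to expected CpG at the start (x axis) against the number of stages, of 4, at which the start had an H3K4me3 domain (y axis), for WT at the left and Uhrf1 KO at the right; the dashed line is the median of all starts, 0.534. The 5 members right of the line are at 4 in both panels, and Zfp42, Prdm14 and Tcl1 are lower in KO than in WT. Esrrb is placed by its annotated start alone, without the marked starts inside the gene.

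The repressive mark H3K27me3 was found at 5 members in WT mESC and at 2 in KO mESC, against 34.9% and 7.57% of all genes. Klf4, Esrrb and Dppa3 had it in WT alone, as did 29.5% of all genes, and no member had it in KO alone (2.17%). At Klf4 the WT domain was 36.0 kb long, at Esrrb 122.4 kb and at Dppa3 12.6 kb, the last ending at -0.028 kb, just before the start. Tbx3 and Prdm14 kept a domain in KO mESC, but with a mean of 0.568 and 0.332 reads per 1500 bp bin, against 8.28 and 12.2 reads per 1800 bp bin in WT. The whole KO mESC list had a median of 0.914 reads per bin, so its domains rest on few reads. With only domains that reached their list's median score, 2 members had the mark in WT mESC against 1 in KO.

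At EB week 1 the mark was found at 8 members in WT and 6 in KO, well above the 20.5% and 21.1% of all genes. Klf2, Klf4, Klf5, Esrrb, Tfcp2l1, Tbx3, Dppa3 and Prdm14 had it in WT, and Klf2 and Dppa3 had it in WT alone (5.67% of all genes), with none in KO alone (6.29%). The Klf2 domain was 1.75 kb long and ended at -4.18 kb, and that of Klf5 was also 1.75 kb long, so both were 1 bin. At week 2, 3 members had the mark in each genotype (29.8% and 24.1%), Zfp42 in WT alone (15.3%) and Esrrb in KO alone (9.55%). The Zfp42 domain was 3562 kb long and reached far beyond the gene. At week 3, 4 members had the mark in WT and 3 in KO (33.2% and 19.5%), Klf4 in WT alone (16.6%) and none in KO alone (2.88%). H3K27me3 thus stood at more members at week 1 than at any other stage in both genotypes, but within 2 kb of the start the number in WT was 5 at week 1 and 5 in mESC.

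Taking H3K4me3 and H3K27me3 as one class, 6 of 10 members had the same class in WT and KO in mESC, against 63.6% of all genes. The number was 6 at week 1 (81.9% of all genes), 8 at week 2 (71.0%) and 8 at week 3 (77.0%). Tbx3 was bivalent in all 4 stages of both genotypes, and Prdm14 in all but KO at week 1, where it carried H3K27me3 alone. Klf4 and Dppa3, 2 of 4 members bivalent in WT mESC, had H3K4me3 alone in KO mESC. Of all 4100 genes bivalent in WT mESC, 2481 did so. With the larger list of each mark cut to its best-scored domains, as many as the other holds, 8 members had the same class in mESC. EBs hold many cell types, so a start with both marks may carry them in different cells, and fewer marked cells cannot be told apart from less mark in each cell.

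H3K9me3 was found in mESC at Klf4, Zfp42 and Tcl1 in WT and at Klf4, Klf5, Zfp42 and Dppa3 in KO, 3 against 4 members, with 29.7% and 40.1% of all genes marked. Tcl1 had it in WT alone (7.46% of all genes), and Klf5 and Dppa3 in KO alone (17.9%). At Tcl1 the WT domain was 16.2 kb long, and at Zfp42 it was 2799 kb in WT and 689.4 kb in KO. At Klf5 the KO domain was 12076 kb long and at Dppa3 1202 kb, so neither was confined to its gene. No Uhrf1 window of 10 kb lay on any of the 10 genes, against 9.84% of all genes. Within 20 kb of the gene body 1 member, Tcl1, had a window, 15.0 kb away (18.1% of all genes).

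All 10 members had a WT Oct4 summit within 20 kb of the gene body, against 30.1% of all genes, and 2, Esrrb and Tfcp2l1, had one in KO, against 1.10%. For Sox2, 9 members had a summit in WT and 9 in KO (18.8% and 57.7% of all genes), Klf4 having none in either. For Nanog, 8 had a summit in WT and all 10 in KO (7.51% and 27.4%), Klf4 and Tcl1 having it in KO alone. In numbers of summits, Oct4 had 27 in WT and 3 in KO, while Sox2 had 20 in WT and 37 in KO, and Nanog 14 in WT and 28 in KO. The whole lists differed the same way, with 12898 WT and 576 KO summits for Oct4, 5190 and 20755 for Sox2, and 2390 and 10632 for Nanog. Because the lists differ this much in length, the counts of the members cannot be separated from those of the lists.

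By gene, WT Oct4 had 6 summits at Esrrb, 4 each at Klf2 and Prdm14, 3 at Dppa3, 2 each at Tfcp2l1, Tbx3, Zfp42 and Tcl1, and 1 each at Klf4 and Klf5. KO Sox2 had 9 at Esrrb, 6 each at Klf2 and Tbx3, 4 each at Tfcp2l1 and Dppa3, 3 at Prdm14, 2 each at Klf5 and Zfp42 and 1 at Tcl1. KO Nanog had 7 at Esrrb, 4 each at Klf2 and Tfcp2l1, 3 at Prdm14, 2 each at Klf4, Tbx3, Zfp42 and Dppa3, and 1 each at Klf5 and Tcl1. Esrrb is by far the longest of these genes, so its counts cover the widest stretch. No summit was counted for 2 members.

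The height of a summit is the number of reads the authors' peak caller placed there. WT Oct4 summits near the members had a median height of 74 reads (19 to 129), against 37 over the whole list, and the tallest were at Klf2 -2.74 kb (129), Zfp42 -13.8 kb (126), Esrrb +137.9 kb (119) and Dppa3 -1.74 kb (114). All 27 lay in a WT H3K4me3 domain, against 38.0% of the list, and 20 lay in a KO domain, against 29.8%. The 7 that left the KO domains were both summits of Tbx3, both of Tcl1, Klf2 +15.5 kb, Klf5 +26.1 kb and Prdm14 -5.08 kb. Of the 4895 WT Oct4 summits of the whole list that lay in a WT domain, 72.1% also lay in a KO domain, against 74.1% near the members.

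**Figure D4:**
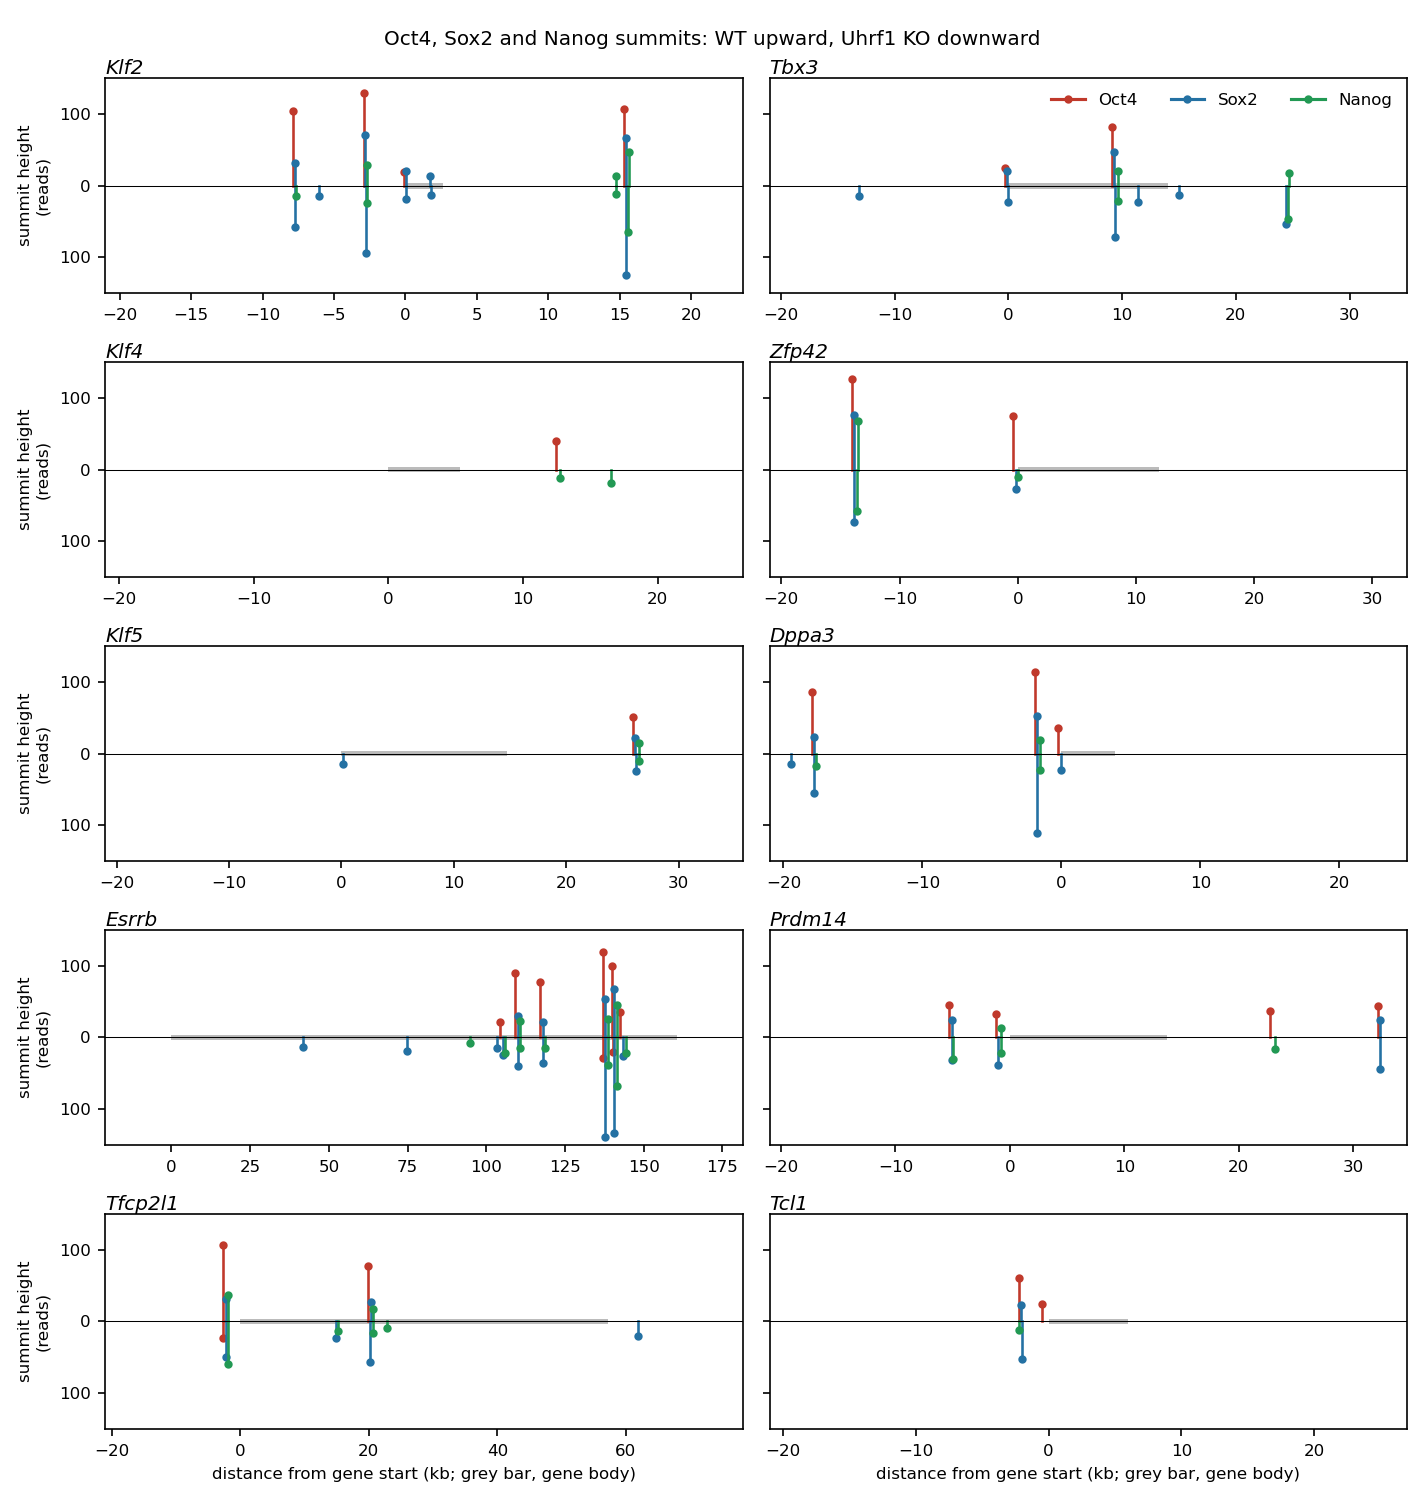
Oct4, Sox2 and Nanog summits within 20 kb of each member, by distance from the gene start in kb (x axis) and height in reads (y axis), WT upward and Uhrf1 KO downward; the grey bar is the gene body, and factors at 1 place are drawn slightly apart. Oct4 points stand above the line at all 10 genes and below it only at Esrrb and Tfcp2l1, while Sox2 and Nanog points stand below nearly every tall WT Oct4 point.

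Of the 27 WT Oct4 summits near the members, 2 had a KO Oct4 summit within 100 bp (7.41%, 95% interval 2.06 to 23.4%), against 1.89% of the whole list. At Esrrb +137.9 kb the height was 119 reads in WT and 29 in KO, and at Tfcp2l1 -2.27 kb it was 106 and 23. A further KO Oct4 summit of 20 reads lay 140.9 kb inside Esrrb, beyond 100 bp from a WT one. Over the whole list the 244 shared Oct4 summits had a median WT height of 97.5 reads, and 2.05% of them were taller in KO. When the WT list was reduced to its tallest summits, as many as the KO list holds, 8 summits near the members were left and 25.0% of them had a KO partner.

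Sox2 or Nanog was found in KO mESC at nearly all of these places. A KO Sox2 summit lay within 100 bp of 23 of the 27 WT Oct4 summits (46.0% of the whole list), a KO Nanog summit of 20 (32.4%), both of 18 (26.4%), and either of 25 (92.6%, 95% interval 76.6 to 97.9%, against 51.9%). WT Sox2 already lay at 19 of the 27 (24.2% of the whole list), WT Nanog at 12 (12.9%), both at 11 (9.46%) and either at 20 (27.6%). The intervals treat summits as independent and cover counting error only, and summits of 1 gene are not independent. Without Esrrb, which held 6 of the 27 summits, the share with KO Sox2 or Nanog was 95.2%. The summits near the members were taller than those of the whole list, with medians of 74 and 37 reads. Over the whole list, WT Oct4 summits with no KO factor had a median of 29 reads, and those with Sox2 or Nanog of both genotypes 60. No share at matched height was computed. The 2 WT Oct4 summits with no factor in KO within 100 bp were Esrrb +143.3 kb, in an exon, with 36 reads, and Tcl1 -0.344 kb, with 24 reads. Near the former, KO Sox2 and Nanog summits lay at +143.6 and +143.7 kb, with 26 and 22 reads.

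At 5 WT Oct4 summits Sox2 and Nanog were both without a WT summit within 100 bp and 1 or both had a KO summit. At Zfp42 -0.188 kb, in the stretch printed above, WT had Oct4 alone (74 reads) and KO had Sox2 (27) and Nanog (10). At Dppa3 -0.063 kb WT had Oct4 alone (36) and KO had Sox2 (23). At Esrrb +105.3 kb WT had Oct4 (22) and KO had Sox2 (25) and Nanog (22). At Klf4 +12.7 kb WT had Oct4 (40) and KO had Nanog (12), and at Prdm14 +22.9 kb WT had Oct4 (37) and KO had Nanog (16). The first 2 of these lie at the gene start, and the others inside or beyond the gene.

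At the places where a factor had a summit in both genotypes, Sox2 was mostly taller in KO and Nanog was not clearly so. Of 20 WT Sox2 summits near the members, 17 had a KO Sox2 summit within 100 bp (85.0%, against 64.6% of the list), and the other 3 had one within 500 bp. The height was greater in KO at 15 of the 17 (77.8% of all shared Sox2 summits), with a median ratio of KO to WT of 1.76, against 1.41 over the list. The largest ratios were at Esrrb +137.9 kb, with 53 reads in WT and 139 in KO, Dppa3 -17.8 kb, with 23 and 55, and Tcl1 -2.04 kb, with 23 and 52. At Dppa3 -1.74 kb Sox2 had 52 reads in WT and 110 in KO. Zfp42 -13.8 kb (76 and 73) and Klf2 at its start (20 and 18) were the places where WT was the taller.

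All 14 WT Nanog summits near the members had a KO Nanog summit within 100 bp, against 81.5% of the list. The height was greater in KO at 8 of the 14 (60.3% of all shared Nanog summits), with a median ratio of 1.13, against 1.16 over the list. Nanog had 18 reads in WT and 46 in KO beyond Tbx3, at +24.4 kb, and 45 and 68 at Esrrb +140.7 kb. It was 68 in WT and 58 in KO at Zfp42 -13.8 kb and 23 and 14 at Esrrb +110.0 kb. The heights are counts of each library that were not scaled here to library depth, so each ratio carries that of the depths, as does the median ratio of the whole list printed beside it.

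**Figure D5:**
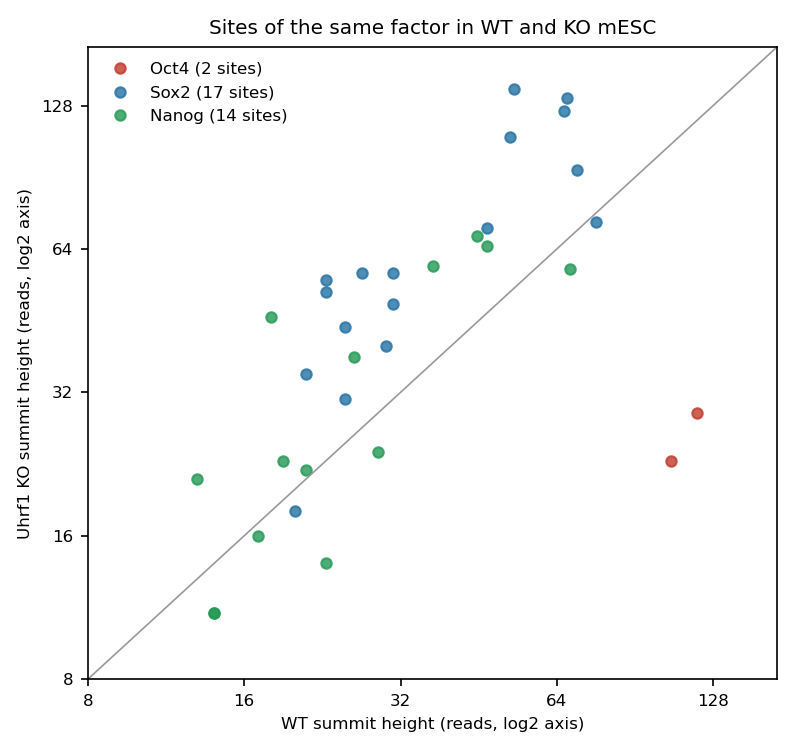
Height in reads of summits with a partner of the same factor within 100 bp, WT on the x axis and Uhrf1 KO on the y axis, both on log2 axes; each point is 1 site near a member, 2 Nanog sites share 1 point, and the line marks equal height. Of 17 Sox2 points 15 lie above the line, of 14 Nanog points 8, and both Oct4 points lie far below it.

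Summits within 100 bp of one another formed 49 places near the members. Of these, 27 had summits in both genotypes, 3 in WT alone and 19 in KO alone. The 3 with WT alone were Klf2 +1.70 kb, with Sox2 (14 reads) and a KO Sox2 summit (13 reads) at +1.82 kb, and the WT Oct4 places Esrrb +143.3 kb and Tcl1 -0.344 kb. Among the 19 in KO alone, 12 held Sox2 alone, 5 Nanog alone, 1 both, at Tfcp2l1 +14.9 kb, and 1 the KO Oct4 summit in Esrrb. All 3 factors met at 11 places in WT and at 2 in KO, Esrrb +137.9 kb and Tfcp2l1 -2.27 kb. Sox2 and Nanog met at 20 places in KO. Places were not counted over the whole lists, which hold far more Sox2 and Nanog summits and far fewer Oct4 summits in KO than in WT. The counts of places by genotype cannot be separated from that difference.

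The wider self-renewal genes, a list of 22 others with the core factors among them, were compared in the same way. In mESC, 20 of 22 had H3K4me3 in WT and 20 in KO (63.2% and 57.0% of all genes). Nr0b1, an orphan nuclear receptor, had it in WT alone (7.60%) and Il6st, the gp130 subunit of the LIF receptor, in KO alone (1.38%). At week 1, 11 had the mark in WT and 6 in KO (62.1% and 57.0%), and 5 differed, all marked in WT alone (6.23%). At weeks 2 and 3, 3 and 1 of them were marked in KO alone (2.27% and 2.04%) and none in WT alone (3.51% and 2.47%). Of 11 genes of the primed state, which follows the naive one, Sox3 was marked in WT mESC alone (7.60% of all genes). At week 1, 4 of 11 were marked in WT alone (6.23%). At week 1 the 8 fibroblast markers had 2 marked in WT alone (6.23%) and none in KO alone (1.18%). The factors at the wider self-renewal genes were much like those at the members. Of the 22, 21 had a WT Oct4 summit within 20 kb and 5 had a KO one (30.1% and 1.10% of all genes). Sox2 was found at 19 in WT and 22 in KO (18.8% and 57.7%), and Nanog at 15 and 22 (7.51% and 27.4%). The mean of WT Oct4 summits per gene was 2.73, against 2.7 at the members and 0.509 over all genes. These lists were chosen with earlier results of the series known and carry no test.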

How the data were processed

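The authors mapped ChIP-seq reads to mm9 with Bowtie2 2.1.0, keeping 1 alignment per read, and deposited a separate list of regions for each library. RSEG, run with the input, gave the histone domains. The deposited signal is the mean read count per bin, and the deposited score grows with the number of bins in a domain. The methods state that ChIP-seq read counts were normalised to mapped reads, but whether that covers the deposited values is not given in the sources used here. Factor summits were called with MACS with the option -g mm, and the deposited signal is the read count where the peak is highest. Uhrf1 windows of 10 kb were deposited without a score. Samples were grouped by GEO's labels, and 0 columns of other samples were left out. The 10 members, the marker and comparison lists and the rules were chosen with earlier results of these data known.

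Coordinates were compared with NCBIM37: in 530 combinations of a list and a chromosome no region passed the chromosome's end, and 39 combinations lay on sequences not read here. A start was called marked by distance to a domain (2 kb or 5 kb), a gene by a summit within 20 kb of its body, and summits were shared within 100 bp. Sequences and CpG ratios were read from NCBIM37 and gene models from GENCODE vM1. Shares have Wilson 95% intervals. All 10 members and Uhrf1 were named, with their tallest summits and every WT Oct4 summit with a KO partner. Other genes were counted by list and named only where H3K4me3 differed between the mESC lists, apart from marker genes. The printed sequences were the 8 tallest places with at least 2 factors in 1 genotype, and the upstream stretches of Zfp42 and Dppa3 were chosen after their values were seen, as were the CpG ratios and the comparison of domain lengths. Python 3.11, numpy 2.4.6, scipy 1.17.1 and matplotlib 3.10.9 were used. On simulated data 0 of 6000 domain calls and 0 of 3000 summit pairs were wrong. The alternatives were other distances, only the better-scored domains or taller summits (at least their list's median), any transcript start, and lists of equal number.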

Additional observations from a re-analysis of the deposited data

Results flagged for a closer look

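The number of members with H3K4me3 at the start, KO minus WT, had different signs at different stages: it was -1 in mESC, -3 at EB week 1, 0 at week 2 and 1 at week 3. It was flagged as a difference between stages in the same contrast. With 1 library per group the difference between stages was not tested. The genes behind it were Tcl1 in mESC, Zfp42, Dppa3 and Prdm14 at week 1, and Dppa3 at week 3. The Dppa3 domains at weeks 1 and 3 began 1.17 and 1.97 kb inside the gene, and under a limit of 1 kb the value was -3 at week 1 and 0 at week 3, with Klf2 in place of Dppa3 at week 1.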

How the results depend on the processing

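No paired analysis was possible because each group holds 1 library, and for the same reason no replicate could be left out. Of 134 alternative values over 40 results, 114 stayed within 1.5 times the main count, or within the interval of the main share, and 20 did not. With only domains that reached their list's median score, the members with H3K4me3 were 4 in KO mESC and 3 in KO EBs at week 1. With H3K27me3 they were then 2 in WT mESC, 1 in KO mESC, 4 in WT EBs at week 1 and 2 at week 3, and with H3K9me3 in WT mESC 1. Within 2 kb, 5 members had H3K27me3 in WT EBs at week 1, as many as in WT mESC. Within 50 kb of the gene body the summits were 41 for WT Oct4, 59 for KO Sox2 and 44 for KO Nanog, and within 10 kb 9 for WT Nanog. At or above the median height WT Nanog had 8 summits at 5 members. With lists of equal number, 25.0% of 8 WT Oct4 and 71.4% of the WT Nanog summits had a KO summit of the same factor, and at 500 or 1000 bp 100% of the WT Sox2 summits did. At 20 kb 1 member had a Uhrf1 window. At or above the median height 100% of the WT Oct4 summits had KO Sox2 or Nanog, an alternative added after the data were seen. The cause of these shifts was not tested beyond the wider or narrower limits themselves. The difference of -3 members in H3K4me3 at week 1 was -3 under all 4 alternatives, but not of the same genes: within 1 kb Klf2 stood in place of Dppa3, and with the median score Klf2 in place of Zfp42. Depth, for which no scaling was made, limits every comparison of heights and of counts between lists.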
